A study of Mus musculus with 24 samples.

Results

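The comparison described here asks whether hesperitin acts on the transcripts of the mouse heart differently with doxorubicin than without it. It uses 12 of the study's 24 samples, all hearts of wild-type (WT) mice taken 16 h after treatment, with 3 libraries in each of 4 groups. V received vehicle, H received hesperitin (10 mg/kg daily), DOX received doxorubicin (25 mg/kg), and DOXH received the pair. No transgene, deletion or further treatment is named for any group. Hesperitin, usually spelled hesperetin, is a flavanone of citrus fruit. The labels do not say how long before or after doxorubicin it was given, nor how many animals stand behind a sample, so a p-value here reflects only how far these samples differ from one another.

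Doxorubicin is an anthracycline that traps topoisomerase II on DNA, breaks the strands and activates the transcription factor p53, and in cardiomyocytes it also disturbs mitochondria and lowers transcripts of the contractile apparatus. Injured hearts often express genes that interferon induces. In a layout where each compound is given alone and together, the interaction is the difference between 2 differences: the log2 fold change of DOXH against DOX minus that of H against V. A value of 0 means that hesperitin shifts a transcript equally in both settings, a positive value that the transcript stands higher in DOXH than the separate effects would add up to, and a negative value that it stands lower. The same number is obtained as the doxorubicin effect with hesperitin (DOXH against H) minus the effect without it (DOX against V).

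The 3 DOXH libraries did not resemble one another, so values of the main genes and gene groups are given by library, and every DOXH mean is an average of unlike libraries. Each library was placed on an axis that runs from the V mean (0) to the DOX mean (1) over all 10393 genes, with V and DOX libraries scored against the other members of their groups. DOXH libraries 1, 2 and 3 lay at 0.52, 0.92 and 0.06, so library 2 was placed among the DOX libraries (0.85 to 1.04) and library 3 among the V libraries (0 to 0.10), while the H libraries lay between -0.05 and 0.09. The labels hold no record of the dose each heart received, so whether dosing, handling or labelling plays a part in these positions was not tested. Genes that doxorubicin changed weigh most in the positions, so in such genes an order of the DOXH libraries by position is partly built in. The group of DOXH averaged 0.50 ± 0.43 (SD, n = 3). It had the largest SD of the 4 groups for 5218 genes (50.2%), and its median SD over genes was 0.20 on the log2 scale, against 0.10 in V, 0.14 in H and 0.13 in DOX. The H libraries were the deepest, with 17664060 to 19869050 counts, against 9255651 to 11074450 for the others, and transcripts of the mitochondrial genome took 34.6% to 40.3% of them. Off the axis, H library 1 was unlike H libraries 2 and 3. The chi-square per degree of freedom between libraries, which grows with depth, was 36.2 and 35 for H 1 against H 2 and H 3. It was 12.6 for H 2 against H 3 and 35.7 for DOXH 2 against DOXH 3. The H mean, which enters every interaction, thus also averages unlike libraries. All 16 cardiomyocyte markers were present in every library, and of 16 lymphocyte markers 0 were among the genes in the table. The table had been filtered before deposit by an unstated rule, and each library had only 0 to 3 genes at 0. Neither this presence nor this absence can therefore test the tissue label.

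**Figure D1:**
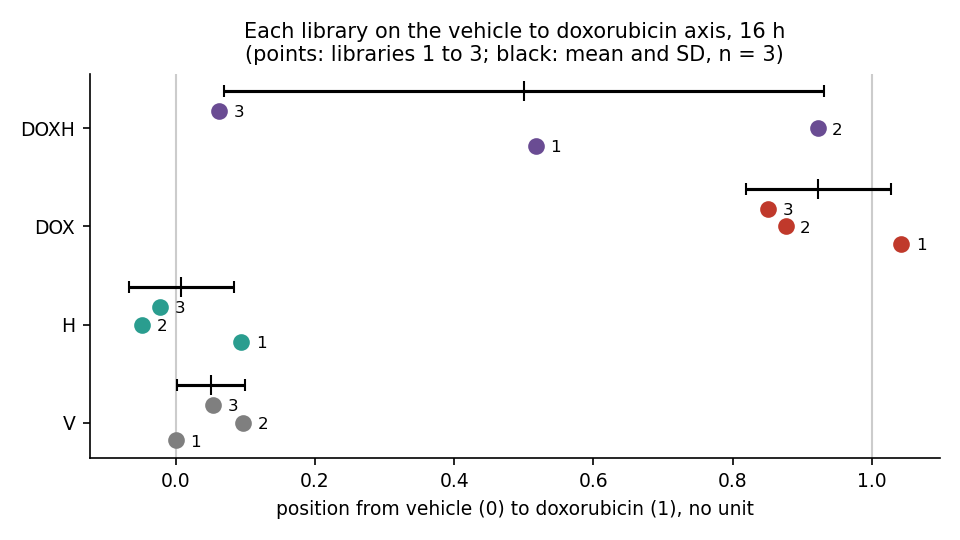
Position of each of the 12 libraries on the axis from vehicle (0) to doxorubicin (1), with the group on the vertical axis, numbered points for libraries and black bars for the mean and SD (n = 3). The 3 DOXH libraries spread over nearly the whole axis, from 0.06 to 0.92, while each other group stays together on this axis.

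No gene passed the interaction test. With edgeR's quasi-likelihood test and Benjamini-Hochberg adjustment over 10393 genes, 0 genes (0%) had an adjusted p under 0.05, and the smallest adjusted p was 0.172. At an unadjusted p under 0.05, 1228 genes were found, of which 712 were positive (6.85% of all genes) and 516 were negative (4.96%). Other tools gave other counts: limma voom called 0 genes, DESeq2 called 53 (44 positive and 9 negative), and voom with a quality weight for each library called 226. The median SE of an interaction was 0.20 on the log2 scale, wider than the 0.14 of each effect that enters it.

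The count also rested on single libraries. Without DOXH library 2, the one nearest to DOX, 254 genes passed (176 positive and 78 negative). Without H library 1, 29 passed, and without H library 2, 1 did. Leaving out DOXH library 1, DOXH library 3, H library 3, or any DOX or V library gave 0. Of the 53 genes called by DESeq2 on all 12 libraries, 42 were also among the 254, and 41 were among both the 254 and the 226. These analyses reuse nearly the same libraries, so the overlap is not independent support for the genes.

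**Figure D2:**
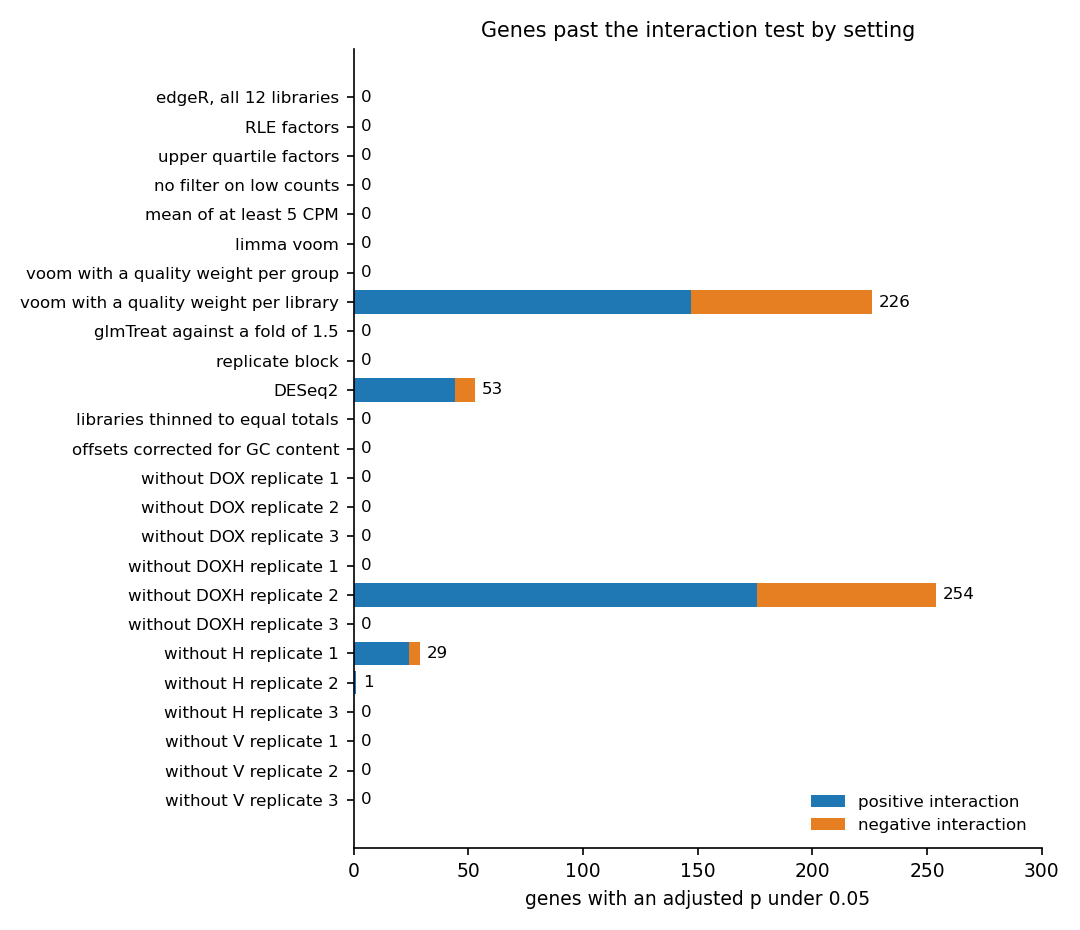
Genes with an adjusted p under 0.05 for the interaction (horizontal axis) in each analysis (vertical axis), split into positive and negative interactions. The count is 0 in most, and 53, 226 and 254 with DESeq2, with voom library weights and without DOXH library 2.

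Intervals of the single genes show what 3 libraries per group could resolve. The 95% interval of an interaction had a median half-width of 0.43 on the log2 scale over 10390 genes. It lay wholly within a fold of 1.5 for 4482 genes (43.1%) and within a fold of 2 for 8314 (80%), and for the rest the interval also reached interactions of that size.

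The effects behind the interaction were of unequal size. Doxorubicin without hesperitin changed 3352 genes (32.3%), with 1624 higher and 1728 lower in DOX than in V. Doxorubicin with hesperitin changed 16 (0.154%), with 12 higher and 4 lower in DOXH than in H. The 2 comparisons share no library, and 10 of the 16 genes (62.5%) were also among the 3352 (0.298% of that list), 9 of them in the same direction. The gap between 3352 and 16 is not a test of the difference, for which the interaction stands. Without DOXH library 3, the one nearest to V, DOXH against H gave 2298 genes. Hesperitin changed 0 genes by edgeR in either setting. At an unadjusted p under 0.05 there were 1958 for DOXH against DOX and 664 for H against V, and DESeq2 called 390 and 13. Without DOXH library 2, 1554 genes passed in DOXH against DOX.

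**Figure D3:**
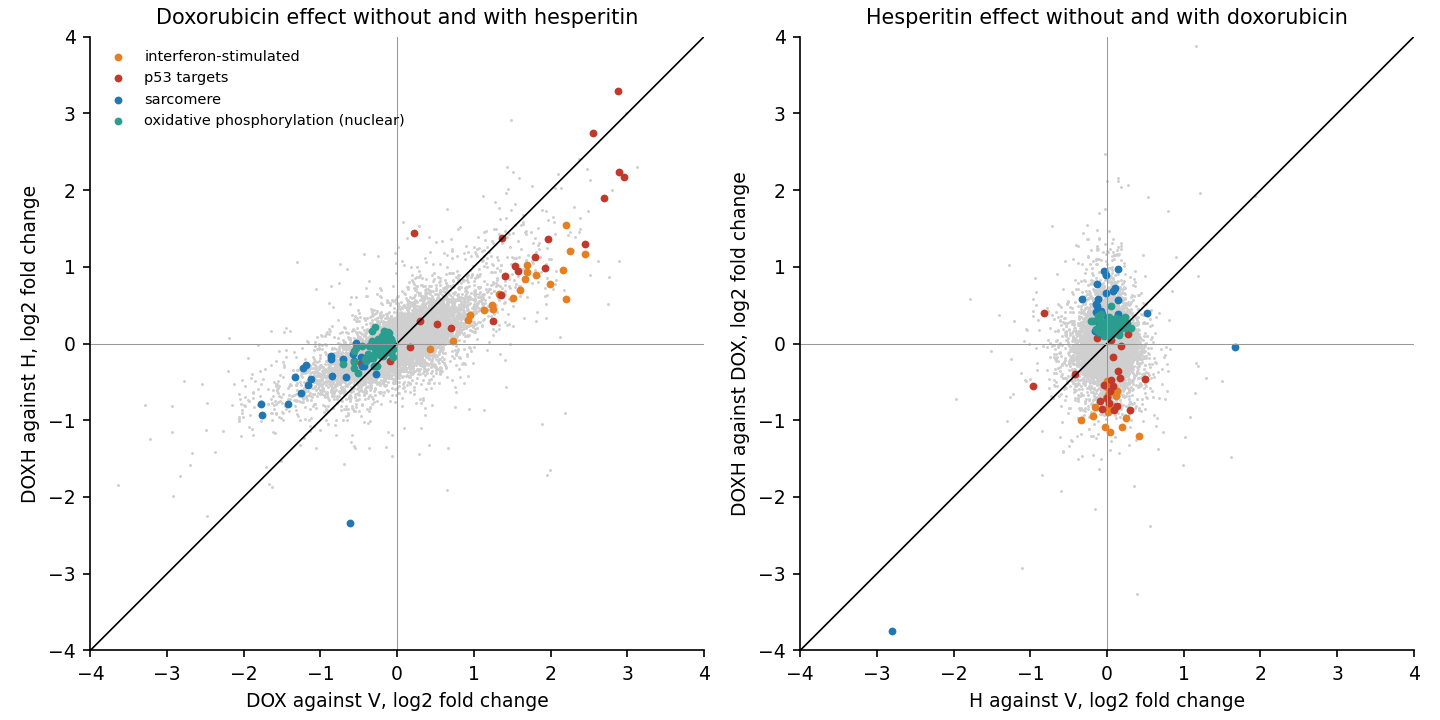
Log2 fold changes of all genes (grey) and of 4 gene groups (coloured), with the doxorubicin effect without and with hesperitin on the left and the hesperitin effect without and with doxorubicin on the right; the diagonal marks an interaction of 0, and 6 and 2 genes lie outside the axes. Interferon-stimulated genes lie below the diagonal in both panels, and 70 of the 75 oxidative phosphorylation genes lie above it.

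The genes nearest to a positive interaction included transcripts of the mitochondrial genome. The following 10 genes had the smallest p among positive values by edgeR, symbols with more than 1 identifier left out. None passed its adjusted threshold, and all 10 passed in DESeq2. The gene with the smallest p was mt-Nd3 (chromosome M, 9459 to 9806, + strand, GRCm38), which encodes a subunit of respiratory complex I. It measured 6379, 6185 and 5746 CPM (counts scaled to library size with TMM factors) in V, 4729, 3743 and 3412 in H, 4744, 4901 and 4183 in DOX, and 6320, 7050 and 6183 in DOXH. Each compound alone thus went with a lower level than vehicle, and the 3 DOXH libraries stood in or above the range of V, without overlap with H or DOX. The interaction was 1.12 ± 0.16 (log2, SE; 95% interval 0.77 to 1.48; edgeR adjusted p = 0.172, DESeq2 adjusted p = 4.71e-06). A similar layout was seen for mt-Co3, a subunit of cytochrome c oxidase, with group means of 2999 ± 423 CPM in V, 2098 ± 202 in H, 2266 ± 170 in DOX and 3229 ± 519 in DOXH (SD, n = 3) and an interaction of 1.03 ± 0.19 (edgeR adjusted p = 0.233, DESeq2 adjusted p = 0.000719).

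Shank3, a scaffold protein best known from synapses (chromosome 15, 89499623 to 89560261), differed in H alone. Its level was 75.1, 69.4 and 72.8 CPM in V, 73.3, 65.6 and 68.4 in DOX, 75.1, 75.5 and 72.8 in DOXH, and 51.5, 48.1 and 50.6 in H. The 9 libraries outside H ran together and every H library lay below them. The interaction was 0.64 ± 0.10 (edgeR adjusted p = 0.172, DESeq2 adjusted p = 2.86e-05), made of -0.53 for H against V and 0.11 for DOXH against DOX.

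Noct encodes nocturnin, a clock-controlled phosphatase of NADP(H). It read 81.7, 77.8 and 53.5 CPM in V, 49.1, 30.4 and 29.6 in H, 48.5, 40.4 and 36.9 in DOX, and 55.2, 69.8 and 63.4 in DOXH. As for mt-Nd3, H and DOX lay below V and the DOXH libraries lay above both, with an interaction of 1.55 ± 0.30 (edgeR adjusted p = 0.233, DESeq2 adjusted p = 0.00134). Asb11, a substrate adaptor of a ubiquitin ligase, showed another layout, in which the H libraries overlapped those of V. It read 91.6, 84.1 and 90.1 CPM in DOX and 125, 114.9 and 121.4 in DOXH, against 105.7 to 118.3 in V and 99.4 to 108.8 in H, and its interaction was 0.52 ± 0.10 (edgeR adjusted p = 0.233, DESeq2 adjusted p = 0.00483).

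The remaining positive genes were Zfhx2, a zinc finger homeobox factor (1.09 ± 0.18), Mpst, an enzyme that makes hydrogen sulfide (0.74 ± 0.13), Ano10, a membrane protein of the anoctamin family (0.76 ± 0.15), Nckap5 (1.70 ± 0.34) and Rn18s, the 18S ribosomal RNA (1.63 ± 0.31). Zfhx2, Mpst and Nckap5 were lowered by doxorubicin alone by 0.99, 0.75 and 2.48 on the log2 scale. Every DOXH library was above every DOX library in the 3 genes, as in 10.1% of all genes. Rn18s belongs to an RNA class that poly(A) selection is meant to remove. It read 391, 405 and 285 CPM in DOX, 604, 866 and 817 in DOXH, 409, 365 and 388 in H, and 390, 744 and 562 in V, and the part of RNA selection in its values was not tested.

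The genes nearest to a negative interaction had a mirror layout. Of the 10 with the smallest p among symbols with 1 identifier, 7 passed in DESeq2 and none in edgeR. Kctd12b, a member of the family of potassium channel tetramerisation domain proteins, read 11.96, 12.4 and 12.04 CPM in V, 13.4, 18.1 and 19.8 in H, 15.8, 16.9 and 16.8 in DOX, and 12.1, 10.3 and 11.9 in DOXH. Each compound alone was above V in every library, and DOXH was below both. The interaction was -1.02 ± 0.20 (edgeR adjusted p = 0.233, DESeq2 adjusted p = 0.0111).

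Sephs2, which makes selenophosphate for selenoproteins, read 19.8, 20.8 and 21.04 CPM in V, 22.4, 24.3 and 22.5 in H, 25.9, 25.8 and 26.9 in DOX, and 20.2, 20.5 and 18.1 in DOXH. The order was the same as for Kctd12b, with an interaction of -0.59 ± 0.12 (edgeR adjusted p = 0.233, DESeq2 adjusted p = 0.0396). Cd200, whose product restrains myeloid cells through its receptor, was different in that every DOX library lay below every V library. Its level was 28.8, 33.7 and 32.9 CPM in V, 44.9, 49.0 and 50.1 in H, 23.1, 25.0 and 25.8 in DOX, and 21.2, 12.5 and 22.1 in DOXH. H lay above every other group and DOXH below every other group, and the interaction was -0.99 ± 0.23 (edgeR adjusted p = 0.292, DESeq2 adjusted p = 0.0206).

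H2aw, a histone H2A gene, rose with doxorubicin alone and stood near V in DOXH. It read 21.5, 29.9 and 21.03 CPM in DOX, 12.1, 14.1 and 10.7 in DOXH, 9.0 to 10.2 in V and 9.4 to 11.5 in H, an interaction of -1.09 ± 0.22 (edgeR adjusted p = 0.242). Clec2d, a C-type lectin recognised by natural killer cells, had an interaction of -1.24 ± 0.27, Aftph, a trafficking protein, of -0.57 ± 0.11, Zfp462, a zinc finger protein, of -0.97 ± 0.19, Clmp, an adhesion protein, of -0.87 ± 0.19, and Apobec1, a cytidine deaminase that edits RNA, of -1.06 ± 0.25. Commd1b had -1.25 ± 0.30, but its annotated span on chromosome 11 overlaps that of Commd1 on the same strand, so the counting could split reads between them. One smaller p belonged to Zc3h11a, which the naming rule left out and which is added after its values were seen. This symbol has a pair of overlapping identifiers on the same strand of chromosome 1, with interactions of -3.09 (edgeR adjusted p = 0.233, DESeq2 adjusted p = 2.34e-05) and 10.80 (edgeR adjusted p = 0.278), so reads may be split between them and neither value is read as a change of the gene.

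Both pairs of groups stood apart without overlap in 7 of the 10 positive and 9 of the 10 negative genes, which follows from how they were chosen and is read no further. Over all genes, 81 (0.779%) had every DOXH library above every DOX library and every H library below every V library, and 60 (0.577%) had the opposite. Without regard to H and V, every DOXH library lay above every DOX library in 1053 genes (10.1%) and below in 906 (8.72%). Every H library lay above every V library in 836 genes (8.04%) and below in 783 (7.53%).

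**Figure D4:**
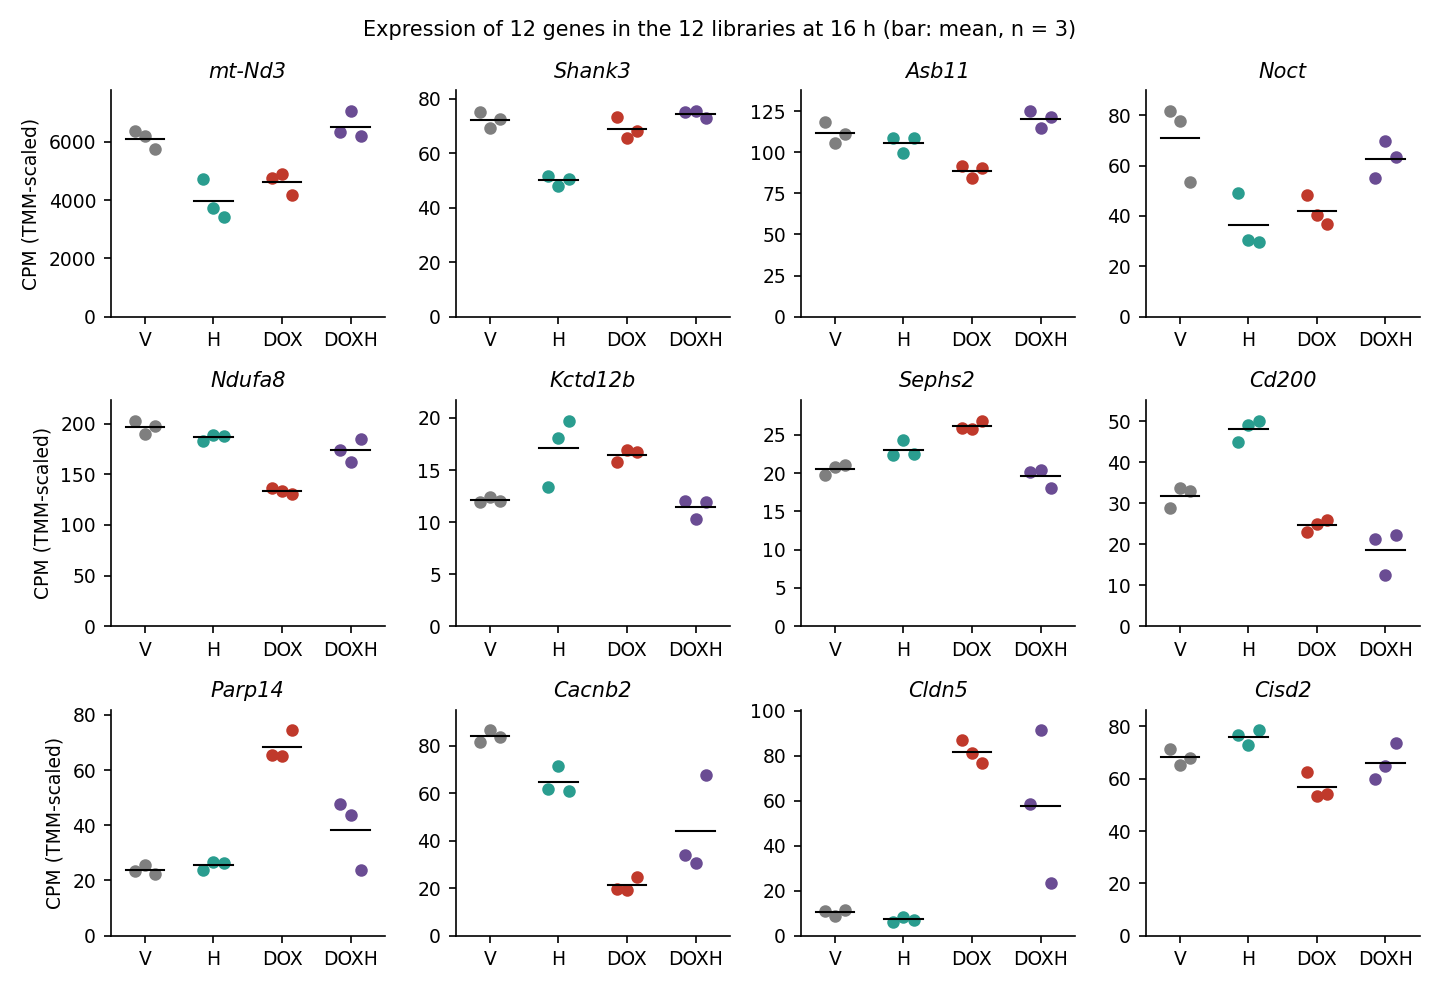
TMM-scaled CPM of 12 genes in the 12 libraries (points, by group; bars are means of 3 libraries), from 0 upward. mt-Nd3 and Noct are lower in H and in DOX than in V and stand back up in DOXH, Kctd12b and Sephs2 show the reverse, and the 3 DOXH libraries of Parp14, Cacnb2 and Cldn5 lie far apart.

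Interferon-stimulated genes leaned to one side as a group. All 20 tested members had a negative interaction, with a median of -0.78 against -0.01 over all genes (5007 positive and 5386 negative). An unadjusted p under 0.05 was reached by 13 of the 20, all negative, beside 4.96% of all genes, and 0 passed the adjusted test. Doxorubicin alone raised 19 of the 20 (beside 1624 of all 10393 genes), by a median of 1.64 on the log2 scale. The median of DOXH against H was 0.68 and that of H against V 0.03. With DOXH libraries 1, 2 and 3 taken singly the median interaction was -0.49, -0.65 and -1.67, so it was negative with each and most negative with library 3. These genes also help to set the library positions, so the place of library 3 is partly built in.

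Parp14, an ADP-ribosyltransferase that interferon induces, had the smallest p of the group. It read 65.4, 64.9 and 74.5 CPM in DOX, 47.5, 43.8 and 23.9 in DOXH, 23.7, 26.6 and 26.4 in H, and 23.5, 25.6 and 22.5 in V. The DOXH libraries were all below DOX, and library 3 was at the level of V. The interaction was -0.93 ± 0.28 (edgeR adjusted p = 0.339). Parp9, its partner in the interferon response, had -0.62 ± 0.20 and Ddx58, the sensor of viral RNA known as RIG-I, -0.58 ± 0.19. Ifi44 had the most negative value of the group at -1.62 ± 0.58, followed by Oasl2, a relative of the oligoadenylate synthetases, at -1.28 ± 0.54, Ifit2 at -1.21 ± 0.48 and Ifit3 at -1.20 ± 0.50, the last 2 being proteins that bind foreign RNA. Stat2 and Irf9, parts of the factor that transmits the type I interferon signal, had -0.91 ± 0.34 and -0.70 ± 0.31.

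The GTPases that interferon induces act against intracellular pathogens, and all 14 had negative values, with a median of -0.97 and 6 at an unadjusted p under 0.05, beside 4.96% of all genes. By DOXH library 1, 2 and 3 the median was -0.45, -1.24 and -1.60. Irgm1 read 20.0, 30.2 and 34.1 CPM in DOX, 19.5, 20.0 and 13.4 in DOXH, 18.2, 18.1 and 18.5 in H, and 14.5, 16.3 and 12.98 in V. DOX library 1 lay within the range of DOXH, and the interaction was -0.99 ± 0.27 (edgeR adjusted p = 0.334). Gbp3, a guanylate-binding protein, read 11.6, 16.0 and 26.5 CPM in DOX and 15.3, 8.36 and 5.91 in DOXH, which overlap, against 7.89 to 9.05 in H and 5.76 to 7.25 in V. Its interaction was -1.28 ± 0.49 (edgeR adjusted p = 0.378). Tgtp2 had -2.04 ± 0.60, but it is nearly identical to Tgtp1 (-1.32 ± 0.80), so reads may be split between them.

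The promoters of these genes are shown because both interferon groups leaned the same way and many share a motif that interferon-activated factors are known to bind. The core of the interferon-stimulated response element, searched as GAAANNGAAA on both strands in windows of 250 bases before to 50 after the start of each gene (RefSeq, GRCm38.p6), was held by 9 of the 9 GTPase genes with a window (100%) and by 7 of 14 interferon-stimulated genes (50.0%). It was held by 305 of 8273 tested genes (3.69%), by 1131 of all 32851 promoters (3.44%), and by 1 of 17 p53 targets. A match is a description of the letters and not of binding in these hearts. The windows shown were chosen among named genes of these groups that hold a match. Capitals mark the matches, on whichever strand they lie, in Irgm1 (chr11:48871371-48871670, - strand), Gbp3 (chr3:142559794-142560093, + strand) and Ddx58 (chr4:40239776-40240075, - strand), each read 5′ to 3′ in the direction of the gene.
Irgm1: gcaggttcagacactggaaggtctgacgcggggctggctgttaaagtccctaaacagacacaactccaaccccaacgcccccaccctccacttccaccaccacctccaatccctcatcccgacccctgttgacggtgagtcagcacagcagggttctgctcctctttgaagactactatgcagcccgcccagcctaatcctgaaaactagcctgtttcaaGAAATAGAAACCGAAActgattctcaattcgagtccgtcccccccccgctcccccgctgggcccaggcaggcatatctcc
Gbp3: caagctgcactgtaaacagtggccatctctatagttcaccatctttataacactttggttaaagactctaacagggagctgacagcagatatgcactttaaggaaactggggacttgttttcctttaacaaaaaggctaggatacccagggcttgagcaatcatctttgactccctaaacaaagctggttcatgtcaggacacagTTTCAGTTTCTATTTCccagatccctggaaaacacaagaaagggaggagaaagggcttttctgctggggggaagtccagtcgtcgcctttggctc
Ddx58: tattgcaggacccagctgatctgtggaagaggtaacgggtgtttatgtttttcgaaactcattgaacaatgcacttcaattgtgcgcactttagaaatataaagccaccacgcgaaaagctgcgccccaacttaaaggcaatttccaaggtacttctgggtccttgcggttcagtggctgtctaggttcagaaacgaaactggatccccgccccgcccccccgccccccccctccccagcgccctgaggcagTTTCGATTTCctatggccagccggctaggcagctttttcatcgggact
Irgm1 and Gbp3 each hold 2 overlapping matches, at bases 221 to 236 and 206 to 221 of the window, and Ddx58 holds 1, at bases 253 to 262.

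Genes of antigen presentation by MHC class II went the other way. Its 4 tested genes, H2-Aa, H2-Ab1, H2-Eb1 and Cd74, all had a positive interaction with an unadjusted p under 0.05 (beside 6.85% of all genes) and a median of 1.12, and 0 passed the adjusted test. By DOXH library 1, 2 and 3 the median was 1.05, 0.49 and 1.58. Doxorubicin alone lowered all 4 (beside 1728 of all 10393 genes), by 0.88 to 1.35 on the log2 scale. H2-Ab1 read 24.8, 39.9 and 26.1 CPM in V, 26.1, 20.3 and 21.8 in H, 10.5, 9.73 and 15.4 in DOX, and 19.4, 13.5 and 30.3 in DOXH. The DOXH libraries spread from the level of DOX to that of V, and the interaction was 1.24 ± 0.40 (edgeR adjusted p = 0.362). Macrophage and monocyte markers, of which 13 were tested, summed to 423 to 529 CPM in DOX, 428 to 446 in DOXH, 319 to 419 in H and 357 to 431 in V. Neutrophil markers, of which 8 were tested, summed to 154 to 282 CPM in DOX, 65.2 to 163 in DOXH, 172, 13.2 and 13.1 in H libraries 1, 2 and 3, and 27.0 to 82.3 in V. No marker was at 0 in any library in either list, and their part in the interferon and MHC values was not tested. In bulk tissue, fewer cells of a type and less RNA per cell cannot be told apart.

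Targets of p53 depended on which DOXH library was read. Of 23 tested, 18 rose with doxorubicin alone (beside 1624 of all 10393 genes), by a median of 1.54 over the group. The interaction had a median of -0.53. An unadjusted p under 0.05 was reached by 3 of 23, all negative, beside 4.96% of all genes. Taken library by library, that median was -0.47 with DOXH library 1, -0.02 with library 2 and -1.51 with library 3, and over the group it was -0.89 without library 2 and -0.21 without library 3. Cdkn1a, the p53 target that halts the cell cycle, read 323, 246 and 212 CPM in DOX, 151, 327 and 53.2 in DOXH, 36.5, 26.9 and 42.5 in V, and 39.8, 7.39 and 6.75 in H. DOXH library 2 was just above the range of DOX and library 3 just above that of V, and H library 1 stood apart from the other H libraries. The interaction was 0.41 ± 1.00 (edgeR adjusted p = 0.893). Mdm2, the ligase that degrades p53, read 136, 142 and 123 CPM in DOX and 89.0, 138 and 44.9 in DOXH, against 43.9 to 45.9 in V and 43.7 to 49.4 in H. The DOXH libraries ran in the same order, with an interaction of -0.63 ± 0.40. These targets are among the genes that set the library positions, so that order is partly built in and is read no further. The 3 members with an unadjusted p under 0.05 were Plk2 (-0.96 ± 0.35), Plk3 (-0.72 ± 0.26) and Xpc (-0.50 ± 0.23), the first 2 being kinases and the last a sensor of DNA damage.

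Nuclear genes of oxidative phosphorylation had similar medians with each of the 3 DOXH libraries, and the contrast with the p53 targets was not tested. Of 75 nuclear genes of oxidative phosphorylation, 70 had a positive interaction and 24 an unadjusted p under 0.05, all positive (beside 6.85% of all genes), with a median of 0.17 and 0 past the adjusted test. The median was 0.17, 0.19 and 0.18 with DOXH libraries 1, 2 and 3. Doxorubicin alone lowered 40 of the 75 (beside 1728 of all 10393 genes), by a median of 0.21 over the group. The median of DOXH against H was -0.05. Ndufa8, an accessory subunit of complex I, read 203, 190 and 198 CPM in V, 183, 189 and 188 in H, 137, 134 and 130 in DOX, and 174, 163 and 185 in DOXH. All DOXH libraries lay above DOX and below V, and the interaction was 0.46 ± 0.10 (95% interval 0.24 to 0.67; edgeR adjusted p = 0.278, DESeq2 adjusted p = 0.00245). Ndufv3, of the same complex, had 0.51 ± 0.11 and Atp5d, the delta subunit of ATP synthase, 0.48 ± 0.11, both with a DESeq2 adjusted p of 0.00978. For Ndufa8, Ndufv3 and Atp5d every H library was below every V library as well, by means of 0.08, 0.20 and 0.19 on the log2 scale. Over all genes, 7.53% had H below V in this way.

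The fuel pathways also leaned positive. In the citric acid cycle 21 of 22 genes were positive (median 0.24) and 11 had an unadjusted p under 0.05, beside 6.85% of all genes. In fatty acid oxidation these counts were 25 of 25 (median 0.25) and 6, and in glycolysis 23 of 24 (median 0.32) and 13, with no negative gene at that threshold and 0 past the adjusted test in any of the 3 groups. By DOXH library 1, 2 and 3 the medians were 0.27, 0.17 and 0.29 in the citric acid cycle, 0.20, 0.22 and 0.36 in fatty acid oxidation, and 0.33, 0.26 and 0.48 in glycolysis, each highest with library 3. Idh3a, a subunit of isocitrate dehydrogenase, read 373, 361 and 344 CPM in DOX and 442, 442 and 542 in DOXH, against 517 to 545 in V and 478 to 569 in H, an interaction of 0.39 ± 0.13. Pfkm, the phosphofructokinase of muscle, read 431, 465 and 426 CPM in DOX and 560, 502 and 704 in DOXH, against 648 to 731 in V and 604 to 727 in H, an interaction of 0.52 ± 0.17. The DOXH libraries of both genes lay above DOX without overlap, as in 10.1% of all genes. Gapdh and Aldoa, enzymes of glycolysis, had 0.47 ± 0.15 and 0.43 ± 0.14.

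Of 13 mRNAs of the mitochondrial genome, 12 had a positive interaction (median 0.33) and 5 had an unadjusted p under 0.05, beside 6.85% of all genes, and the median was 0.19 without H library 1. Values were uneven along this genome: mt-Nd3 and mt-Co3 stood at 1.12 and 1.03, mt-Co2 at 0.60 ± 0.23, mt-Nd4l at 0.46 ± 0.15, and mt-Nd1, mt-Co1 and mt-Atp6 at 0.16, 0.12 and -0.18. The large ribosomal RNA of mitochondria, mt-Rnr2, read 10670, 12090 and 9481 CPM in DOX, 11400, 12170 and 9220 in DOXH, 6422, 6491 and 5158 in H, and 8370, 8430 and 8882 in V, so that H lay below all other libraries. Its interaction was 0.53 (edgeR adjusted p = 0.362). Cytosolic ribosomal proteins, given for scale, had a median interaction of 0.00 over 58 genes, with 29 positive and 29 negative.

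Transcripts of the contractile and electrical apparatus leaned positive, and their medians ran in the order of the positions of the DOXH libraries. These genes are among those that set the positions, and doxorubicin lowered many of them, so that order is partly built in and is read no further. In the sarcomere 25 of 28 genes were positive (median 0.43) and 13 had an unadjusted p under 0.05, beside 6.85% of all genes. In calcium handling these counts were 16 of 23 (median 0.40) and 6, with 1 negative gene at that threshold, and among ion channels 15 of 23 (median 0.39) and 7. No gene of these groups passed the adjusted test. By DOXH library 1, 2 and 3 the medians were 0.39, 0.18 and 0.60 in the sarcomere, 0.25, -0.02 and 0.66 in calcium handling, and 0.20, 0.06 and 0.64 among channels. Without DOXH library 3 the medians of calcium handling and channels were 0.15 and 0.08, and without library 2 that of channels was 0.60. Doxorubicin alone lowered 23 of the 28 sarcomere genes, 14 of the 23 calcium genes and 10 of the 23 channel genes. Over all genes it lowered 1728 of 10393.

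Cacnb2, a subunit of the L-type calcium channel, showed this dependence. It read 81.7, 86.6 and 83.7 CPM in V, 61.9, 71.2 and 60.8 in H, 19.7, 19.2 and 24.7 in DOX, and 34.0, 30.4 and 67.5 in DOXH. The DOXH libraries were all above DOX, with library 3 in the range of H, and the interaction was 1.43 ± 0.34 (edgeR adjusted p = 0.327, DESeq2 adjusted p = 0.014). Kcnk3, a background potassium channel, read 38.4, 58.9 and 69.7 CPM in DOX and 130, 51.3 and 221 in DOXH, against 224 to 238 in V and 193 to 234 in H. DOXH library 2 lay within DOX and library 3 within H, so the interaction of 1.40 ± 0.55 (edgeR adjusted p = 0.387) is an average of unlike libraries. Jph2, which ties the sarcoplasmic reticulum to the cell membrane, had 0.64 ± 0.19.

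Myoz2, a protein of the Z-disc, was more even. It read 663, 647 and 689 CPM in V, 655, 629 and 530 in H, 472, 479 and 423 in DOX, and 582, 608 and 629 in DOXH. All DOXH libraries were above DOX, library 2 included, with an interaction of 0.55 ± 0.12 (edgeR adjusted p = 0.278, DESeq2 adjusted p = 0.015). Myl2, the ventricular regulatory light chain, read 4856, 5471 and 4778 CPM in DOX and 6066, 6156 and 6768 in DOXH, against 7153 to 7828 in V and 7378 to 7485 in H, an interaction of 0.33 ± 0.10. The summed CPM of all 16 cardiomyocyte markers moved in the same way, with 80440 to 90250 in V, 80120 to 91370 in H, 47700 to 50360 in DOX, and 62110, 57020 and 85750 in DOXH libraries 1, 2 and 3. All 16 had a positive interaction (median 0.42) and 8 an unadjusted p under 0.05, beside 6.85% of all genes. The median was 0.32, 0.15 and 0.66 with DOXH libraries 1, 2 and 3, and 0.24 without library 3. Whether the cardiomyocyte share of the RNA plays a part in the metabolic and contractile groups was not tested.

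**Figure D5:**
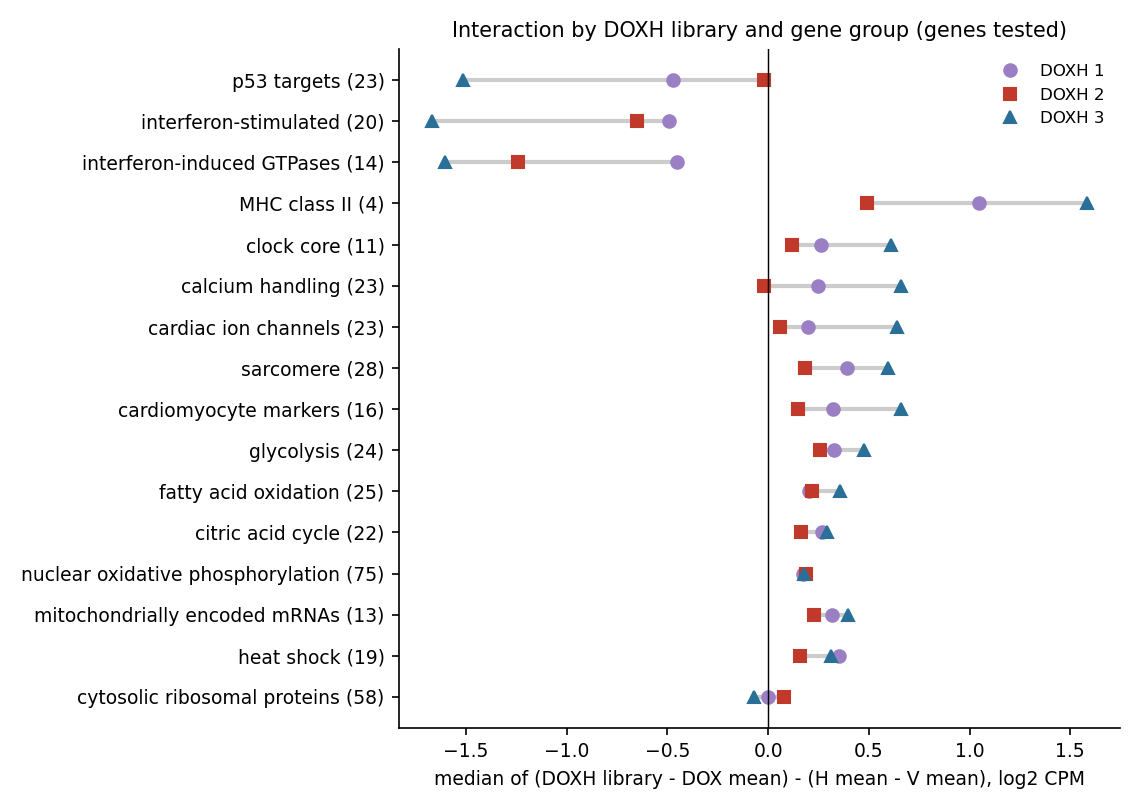
Median interaction of 16 gene groups (number of genes tested in parentheses), computed with each DOXH library alone against the means of the other groups, on the log2 CPM scale. For oxidative phosphorylation the 3 libraries coincide near 0.18, while for p53 targets they run from -0.02 in library 2 to -1.51 in library 3.

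Clock genes were uneven. Of 11 core clock genes tested, 9 had a positive interaction (median 0.36) and 3 had an unadjusted p under 0.05, all positive, beside 6.85% of all genes. By DOXH library 1, 2 and 3 the median of the core genes was 0.26, 0.12 and 0.61. Of 10 clock output genes tested, 5 were positive and 5 negative (median 0.095), with 2 positive at that threshold. Per2, a repressor in the clock's feedback loop, read 31.7, 33.3 and 34.1 CPM in V, 27.9, 19.6 and 19.2 in H, 14.9, 12.5 and 14.8 in DOX, and 19.1, 15 and 17.01 in DOXH. Both compounds alone were below V without overlap, and DOXH was above DOX by a small margin, an interaction of 0.85 ± 0.21 (edgeR adjusted p = 0.334). Per1, its paralogue, read 58.6, 37.3 and 33.2 CPM in H, below every other group, against 61.1 to 76.7 in V, 72.4 to 102.6 in DOX and 82.2 to 97.4 in DOXH, an interaction of 0.68 ± 0.29. The hour of day at which each heart was taken is not in the labels, and its part was not tested.

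Among 19 heat shock genes 17 were positive (median 0.26), with 4 at an unadjusted p under 0.05, beside 6.85% of all genes, and medians of 0.35, 0.16 and 0.31 by DOXH library. These 4 were the chaperones Hspa8 (0.52 ± 0.17), Hsph1 (0.53 ± 0.21) and Cryab (0.32 ± 0.12), and the co-chaperone Bag3 (0.56 ± 0.25). Cholesterol and lipid synthesis had 20 genes tested, 2 positive and 4 negative at that threshold (beside 6.85% and 4.96% of all genes), and a median of -0.15. Scd2, a desaturase of fatty acids, read 17.4, 17.3 and 25.4 CPM in DOX, 13.6, 11.7 and 13.9 in DOXH, 16.2, 22.2 and 19.8 in H, and 16.6, 21.4 and 13.7 in V. Every DOXH library was below every DOX library, with an interaction of -0.78 ± 0.27 (edgeR adjusted p = 0.366).

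Genes that respond to glucocorticoids and fasting had a median of 0.31 over 24 genes, with 4 positive at an unadjusted p under 0.05 (beside 6.85% of all genes) and 0 past the adjusted test. By DOXH library 1, 2 and 3 the median was 0.265, 0.799 and 0.197. Without DOXH library 2 it was -0.06, and over all 24 other settings it ran from -0.062 to 0.675. The H libraries were also split: relative to the V mean, the median of these genes was -0.009, -0.598 and -0.549 in H libraries 1, 2 and 3. Among 33 antioxidant genes of the NRF2 pathway, 4 were positive and 1 negative at that threshold, with a median of -0.03, and 20 genes of autophagy and lysosomes had 0 by edgeR and a median of 0.07.

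The CISD family is named in the title of the series, and none of Cisd1, Cisd2 and Cisd3 passed the interaction test. Cisd2, whose product carries an iron-sulfur cluster and sits in membranes of the endoplasmic reticulum and mitochondria, read 71.5, 65.3 and 67.7 CPM in V, 76.7, 72.8 and 78.6 in H, 62.7, 53.4 and 54.3 in DOX, and 59.9, 64.7 and 73.7 in DOXH. H was above V without overlap, and DOXH overlapped with DOX. Hesperitin went with 0.16 without doxorubicin and 0.22 with it on the log2 scale, which leaves an interaction of 0.06 ± 0.13 (95% interval -0.23 to 0.35; edgeR adjusted p = 0.877). Cisd1 (mitoNEET) had 0.08 ± 0.10 and Cisd3, the relative inside mitochondria, 0.22 ± 0.19, with edgeR adjusted p of 0.768 and 0.646. The 95% interval was -0.14 to 0.30 for Cisd1 and -0.19 to 0.62 for Cisd3, the latter reaching past a fold of 1.5. Of 23 genes of CISD and iron-sulfur assembly, 0 had an unadjusted p under 0.05 by edgeR, and the median was 0.06.

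The 16 genes that passed in DOXH against H are given with both doxorubicin effects, as a count that rested on single libraries (0 to 6 without any one library other than H 1 or DOXH 3). Cldn5, a tight junction protein of endothelium, read 87.1, 81.1 and 76.7 CPM in DOX, 58.7, 91.5 and 23.3 in DOXH, 6.29, 8.35 and 6.96 in H, and 10.8, 8.61 and 11.5 in V. Doxorubicin raised it by 2.99 without and by 3.01 ± 0.38 with hesperitin (log2; adjusted p = 0.0221 in DOXH against H), an interaction of 0.02, although its DOXH libraries differed among themselves. The same held for Fosl2, a subunit of the AP-1 factor (2.09 and 2.21), Ptpru, a receptor phosphatase (0.99 and 1.01), Tbc1d4, a regulator of glucose transporter traffic (0.64 and 0.71), and Bcl9l, a coactivator of Wnt signalling (0.49 and 0.56). Arntl (Bmal1), the activator of the clock, rose by 2.05 without and by 1.59 with hesperitin. Ciart, a repressor of the clock, fell by 2.84 and by 1.72, and Ddit3, a factor of the stress response also called CHOP, fell by 0.67 and by 0.94. The signalling kinase Sik1 rose by 1.12 and by 1.93.

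The other genes of the 16 did not pass in DOX against V, apart from mt-Nd3. Mbd1, which binds methylated DNA, read 82.6, 78.6 and 65.8 CPM in DOX, 69.5, 80.7 and 75.8 in DOXH, 47.1, 29.6 and 30.6 in H, and 77.4, 64.3 and 76.4 in V. The H libraries alone were low, as for Shank3 and mt-Rnr2, and the interaction was 1.01 (edgeR adjusted p = 0.290). Rgs2, which shortens signals of G protein-coupled receptors, rose by 1.32 in DOXH against H and had 0.51 in DOX against V. Rasl11b, a small GTPase, fell by 1.19 in DOXH against H, with 8.09 to 11.5 CPM in DOXH, 18.3 to 26.6 in H, 14.5 to 19.02 in DOX and 12.98 to 19.8 in V. Cd200, described above, fell by 1.36, while mt-Rnr2 rose by 0.86 and Shank3 by 0.57.

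Counts of the remaining cell type markers are read against 6.85% of all genes positive and 4.96% negative at an unadjusted p under 0.05. Of 24 endothelial markers 2 were positive at that threshold (median 0.11), of 18 fibroblast markers 0 by edgeR (median -0.17), of 13 mural markers 2 positive (median 0.08), and of 13 macrophage and monocyte markers 1 positive and 2 negative (median 0.05). The 8 neutrophil markers had a median of -1.35 with 0 at that threshold by edgeR, and the sign turned without H library 1, to 1.39. Atrial and conduction markers summed to 1224, 109 and 629 CPM in the 3 DOX libraries and to 72.7 to 381 in all others, with a median interaction of -0.55 and 0 of 7 at that threshold, so DOX libraries 1 and 3 held more atrial transcripts than the rest.

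GC content and expression level moved with the interaction. Over quartiles of GC content, from lowest to highest, the median of H against V was 0.07, 0.04, -0.01 and -0.09 and that of the interaction -0.08, -0.04, 0.01 and 0.10, while that of DOXH against DOX ran from -0.02 to -0.004. Over quartiles of expression level the median of the interaction was -0.11, -0.06, -0.01 and 0.08, and that of DOXH against DOX -0.09, -0.05, -0.01 and 0.08, so the most abundant transcripts, which include many of energy metabolism and the sarcomere, leaned positive as a whole. The H libraries also held the most counts. With offsets corrected for GC content the medians were 0.18 for oxidative phosphorylation, -0.74 for interferon-stimulated genes and 0.42 for the sarcomere, close to the values without it, and with all libraries thinned to equal totals 0 genes passed.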

How the data were processed

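Poly(A) RNA of mouse hearts was sequenced, and per the labels' protocols every sample had an integrity number (RIN) over 8. The authors deposited expected counts per gene, estimates that need not be whole, in 1 table per time. The submitters' processing notes name RSEM, DESeq2 and the mouse build GRCm38 (mm10). Versions, annotation and use of strand were not given in the sources used here. At 16 h the table has 10393 genes, already filtered by an unstated rule. That of 72 h was not analysed here.

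Expected counts (23.5% of values not whole) were rounded and TMM-scaled. One robust quasi-likelihood model with a mean for each of 4 groups (12 libraries, 8 residual degrees of freedom) was fitted in edgeR 4.0.16 under R 4.3.3. Benjamini-Hochberg adjustment was over all genes tested, with a threshold of 0.05. filterByExpr removed 0 genes. CPM are TMM-scaled, with a prior count of 2 for log2 CPM. The SE is the absolute log2 change divided by the square root of F. Replicates differed by more than counting noise. Depth of 9255651 to 19869050 counts per library limits low genes more than high ones.

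The gene lists and the rule for naming genes were chosen with earlier results of these data known. The rule names the 10 genes of smallest p in each direction where none passes, provided that their log2 CPM averages 1 or more, Cisd1 to Cisd3, and up to 3 members of each list with at least 0.25 of its members at an unadjusted p under 0.05. Other members, and the genes that passed in DOXH against H, were chosen after their values were seen. In all, 6 symbols with more than 1 identifier were not named. Positions and GC content come from GENCODE M21 on GRCm38 (10385 identifiers matched). Tried in addition were DESeq2 1.42.0, voom of limma 3.58.1 without and with quality weights, RLE or upper quartile factors, no filter, a minimum mean of 5 CPM, glmTreat against a fold of 1.5, a replicate block, thinning, GC offsets and each library left out.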

Additional observations from a re-analysis of the deposited data

How the results depend on the processing

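Of 24 other settings, those that gave interaction calls were voom with a quality weight per library (226), DESeq2 (53) and, among libraries left out, those without DOXH 2 (254), H 1 (29) and H 2 (1), so the range over left-out libraries was 0 to 254. With the replicate block the count was 0. Same-numbered libraries correlated at -0.415 to 0.25 (18 pairs), so the numbers were not taken to pair the samples. The block gave 3064 genes in DOX against V and 7 in DOXH against H.

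DOXH against DOX gave 1306 genes with voom library weights, 390 with DESeq2 and 0 to 1554 with libraries left out (1 without H 2). H against V gave 3 with a voom weight per group, 16 with library weights, 13 with DESeq2 and 0 to 47 with libraries left out (47 without H 1). DOX against V gave 5122 with library weights, 91 against a fold of 1.5 and 1928 to 4031 with libraries left out, the lowest without V 1 (2230 without DOX 1 and 2021 without V 3). DOXH against H gave 55 with upper quartile factors, 29 with voom, 1 with group weights, 2113 with library weights, 0 against a fold of 1.5, 718 with DESeq2 and 0 to 2298 with libraries left out (2298 without DOXH 3, 192 without H 1, and 0 to 6 without any other).

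Of 72 genes followed, 66 kept the sign of their interaction in every setting run, although the adjusted p of mt-Nd3 was 0.172 in edgeR and 4.71e-06 in DESeq2. Most of the 72 were chosen by small p in these same libraries, which the settings reuse, so kept signs were favoured in advance. Over all genes, 87.5% to 100% kept their sign in any single setting. Against a fold of 1.5, which is another question than a difference from 0, mt-Nd3 did not pass. The 6 others had values near 0 in the edgeR fit to all libraries. Cisd2 gave -0.002 with library weights (it spanned -0.024 to 0.136 with libraries left out). Bcl9l gave -0.064 with GC offsets. Cldn5 gave -0.19 with voom and with group weights, 0.00 with library weights, -0.055 with the replicate block, -0.048 thinned, -0.093 with GC offsets and -0.472 to 0.395 with libraries left out. Ptpru gave -0.068 with library weights, -0.089 with GC offsets and -0.083 to 0.081 with libraries left out. Its highest value over the 24 settings was 0.344. Over these settings Fosl2 gave -0.276 to 0.412 and Tbc1d4 -0.032 to 0.182. Median interactions kept their sign in all 24 settings for oxidative phosphorylation (0.134 to 0.221), interferon-stimulated genes (-1.043 to -0.546), p53 targets (-0.886 to -0.214) and the sarcomere (0.321 to 0.519). The cause of these differences was not tested beyond the left-out libraries. With 3 libraries per group, the 95% interval of the interaction lay within a fold of 1.5 for 43.1% of genes.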
